A study of Mus musculus with 21 samples.

Results

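Lesional skin of Ifnk transgenic (Ifnk TG) mice was compared with nonlesional skin of the same genotype by bulk RNA sequencing. The comparison used 6 of the 21 libraries of the series, chosen by their labels alone: 4 lesional libraries (L 4, L 5, L 6 and L 7) and 2 nonlesional libraries (NL 2 and NL 3), numbered as in the labels. Both groups carried the same allele, an Ifnk transgene driven by the keratin 14 promoter, made with a PiggyBac vector and backcrossed onto BALB/c, and both came from untreated mice of 12 months. The 3 remaining skin libraries (WT 8, WT 9 and WT 10, BALB/c wild-type mice of 12 months, without the transgene) entered the same fit and are given as levels only, and the 12 lymph node libraries of the series were not used. The study design lists female and male mice and places the lesions mainly on the face and back, but the labels assign no sex, body site or mouse to a library. The study's methods add that nonlesional skin came from the back and from sites like those of the lesions, without saying which library came from where. Lesion and body site therefore cannot be told apart in these libraries, and since the labels do not state that each library came from a separate mouse, the p-values measure only the spread between these samples.

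Interferon kappa is a type I interferon made mainly by keratinocytes, and it signals through the shared type I interferon receptor to induce antiviral genes such as Isg15 and the Oas family. The keratin 14 promoter is active in basal keratinocytes and in the outer root sheath of the hair follicle, so the transgene addresses the epithelium rather than the dermis. Lesional skin in this model is described by the study as scaly, thickened plaques with hair loss and a mixed infiltrate. The question put to the comparison was what separated the lesions from unaffected skin that carried the same transgene.

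Ifnk itself (chr4:35152056-35154005, GRCm38) was counted only sparsely. It had 14, 11, 5 and 8 counts in L 4, L 5, L 6 and L 7, 6 and 0 counts in NL 2 and NL 3, and no counts in the 3 WT libraries. Counts were thus seen in all 4 lesional and in 1 of 2 nonlesional libraries and in no WT library, and the difference between lesional and nonlesional skin did not pass the test (log2 fold change 1.63, adjusted p = 0.309). Whether transcripts of the transgene were counted under Ifnk was not tested.

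The libraries held 40499078 to 56511276 counts in lesional skin and 41908178 to 50928162 in nonlesional skin. NL 2 and NL 3 correlated with each other across genes at r = 0.983 (Pearson, log2 CPM, where CPM are counts scaled to a common library size), the lesional pairs at 0.940 to 0.971 and the lesional-to-nonlesional pairs at 0.838 to 0.904, where genes are not independent replicates. Xist, the RNA that coats the inactive X chromosome in female cells, was at 0.132 CPM in L 6 and 0.319 CPM in NL 3, and at 78.9 to 179 CPM in the other 7 skin libraries, so each group held 1 library with almost no Xist. Of 5 sex-linked genes listed, only Xist passed the low-count filter, and 3 had no count in any skin library. The sex of the libraries was therefore not assigned. Of 19101 genes that passed the filter on low counts, 4782 differed at an adjusted p under 0.05 (25.0%; edgeR quasi-likelihood test, Benjamini-Hochberg adjustment, which applies to every adjusted p here), 2519 higher (13.2%) and 2263 lower (11.8%) in lesional skin. All 4 lesional libraries lay above both nonlesional libraries for 24.7% of tested genes and below both for 24.7%. The median log2 fold change over all tested genes was 0.03. A list with shares of calls near 13.2% higher and 11.8% lower does not stand apart from all tested genes. The nonlesional side rests on 2 libraries: without NL 2 the count of differentially expressed genes (DEGs) was 1470, and without NL 3 it was 1182, with the lone nonlesional library assumed to vary like the other groups. For most gene groups below, the calls that remained in these fits are given. Fitted on the 6 lesional and nonlesional libraries alone, 3156 DEGs were found.

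**Figure D1:**
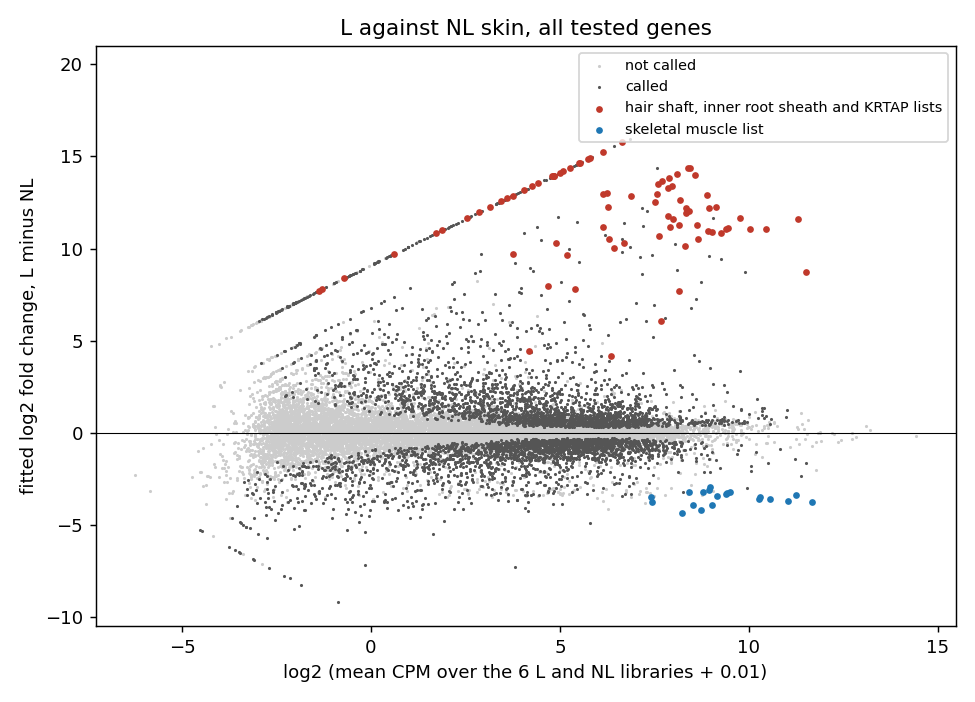
Log2 fold change of lesional over nonlesional skin (vertical axis) against the log2 of the mean CPM over the 6 lesional and nonlesional libraries plus 0.01 (horizontal axis) for all 19101 tested genes. Hair shaft, inner root sheath and keratin-associated protein genes (red) lie far above the other genes, and the 20 skeletal muscle genes (blue) lie below 0.

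The hair genes stood furthest apart. The hair shaft is built from hair keratins embedded in a matrix of keratin-associated proteins (KRTAPs), and the growing shaft is moulded by the inner root sheath, whose cells make their own keratins and trichohyalin. All 15 hair shaft keratin genes tested, all 9 inner root sheath genes and 55 of 57 KRTAP genes were higher in lesional skin, with median log2 fold changes of 11.28, 11.06 and 12.57. These genes passed the filter on low counts almost only through the lesional libraries, so that those tested had to differ, and the counts are given as a description: with at least 10 counts required in every library, 2 of the shaft keratins, 2 of the sheath genes and 1 KRTAP gene could be tested, all of them called higher. With no such filter, 15, 9 and 50 were called, of 15, 9 and 58 tested. None was lower in the main comparison, and the calls remained for 15 without NL 2 and 15 without NL 3 of the 15 shaft keratins, 8 without NL 2 and 8 without NL 3 of the 9 sheath genes, and 45 without NL 2 and 45 without NL 3 of the 57 KRTAP genes. KRTAP genes held 0.670, 2.66, 0.995 and 1.31% of all counts in L 4, L 5, L 6 and L 7, against 0.000513 and 0.00118% in NL 2 and NL 3. The inner root sheath genes held 0.540, 1.16, 1.70 and 2.36% in the lesional libraries and 0.000927 and 0.00224% in the nonlesional ones. KRTAP genes are short and alike in sequence, so the split of reads between single members is uncertain, but the sum over the family is less affected.

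Tchh, which encodes trichohyalin of the inner root sheath, was at 2259, 3974, 4768 and 6430 CPM in L 4, L 5, L 6 and L 7 and at 6.42 and 13.8 CPM in NL 2 and NL 3. The lesional libraries were high throughout and did not overlap with the nonlesional ones (log2 fold change 8.75, SE 0.67, adjusted p = 0.000383). Krt35, an early hair shaft keratin, was at 331, 389, 506 and 826 CPM in the lesional libraries and 0.134 and 0.0981 CPM in the nonlesional ones (log2 fold change 12.06, SE 0.85, adjusted p = 0.000363). Krt71, a keratin of the inner root sheath, was at 1096, 2734, 4672 and 6608 CPM in the lesional libraries and 0.344 and 2.13 CPM in the nonlesional ones. L 7 was the highest and L 4 the lowest lesional library for each of Tchh and Krt71, while the KRTAP sum was highest in L 5, so the order of the lesions differed between the sheath and the shaft matrix. Krtap4-7 was at 61.1, 267, 149 and 123 CPM in the lesional libraries and had no count in either nonlesional library. Against a floor of 3 counts in each nonlesional library its level was higher by at least 2292-fold (adjusted p = 0.00367). Of the 10 named genes with the largest fitted rises, all had no count in NL 2 or NL 3, and 4 of them were annotated KRTAP genes (Krtap4-7, Krtap19-4, Krtap4-6 and Krtap6-3), the others being Gm11562, Gm11938, Gm11563, Gm47959, A030005L19Rik and A030003K21Rik. Gm47959 was no longer called without NL 3, nor A030005L19Rik without NL 2 or without NL 3. In all, 177 genes were called higher with no count in either nonlesional library, 54 of them inside the KRTAP, keratin or cornified envelope clusters.

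The rise took in many of the tested genes of several gene clusters. The KRTAP genes among them passed the low-count filter almost only through the lesional libraries, so the counts are a description. Of all tested genes 13.2% were called higher, and cluster genes too low to be tested are left out. The KRTAP cluster of chromosome 16 (88610705 to 89571183, GRCm38) held 35 tested genes, of which 30 rose. Of the 38 tested in the chromosome 11 cluster (99550130 to 99993994), 37 rose, and all 17 tested in the chromosome 10 cluster (77720599 to 77837252) rose. These counts include predicted genes with no KRTAP name, 8 of 11, 14 of 15 and 13 of 13 of which rose. In the type II keratin cluster of chromosome 15 (101347444 to 102032027), where epithelial and hair keratins lie side by side, 15 of 29 tested genes rose and 1 fell.

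Promoters of some of these genes are shown because many members share a sequence feature that the comparison did not use. Their joint rise depends on the low-count filter as stated above, and no link between it and the feature was tested. The windows are the 250 bases before the annotated start (RefSeq, GRCm38.p6), written 5′ to 3′ on the gene's strand. Capitals mark TATAAA, the core of the TATA box, the element that positions the start of transcription.
Krtap4-7 promoter, chr11:99644090-99644339, minus strand: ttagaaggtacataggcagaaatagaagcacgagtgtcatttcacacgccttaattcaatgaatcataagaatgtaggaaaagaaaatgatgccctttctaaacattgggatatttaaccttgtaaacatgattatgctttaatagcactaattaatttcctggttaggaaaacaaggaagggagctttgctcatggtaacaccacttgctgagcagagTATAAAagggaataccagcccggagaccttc
Krtap8-1 promoter, chr16:89487953-89488202, minus strand: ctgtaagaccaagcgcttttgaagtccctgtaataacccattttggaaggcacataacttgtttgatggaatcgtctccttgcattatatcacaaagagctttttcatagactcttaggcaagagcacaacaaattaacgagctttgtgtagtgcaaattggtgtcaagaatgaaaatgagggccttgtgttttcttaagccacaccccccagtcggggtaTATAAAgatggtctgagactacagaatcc
Krt31 promoter, chr11:100050552-100050801, minus strand: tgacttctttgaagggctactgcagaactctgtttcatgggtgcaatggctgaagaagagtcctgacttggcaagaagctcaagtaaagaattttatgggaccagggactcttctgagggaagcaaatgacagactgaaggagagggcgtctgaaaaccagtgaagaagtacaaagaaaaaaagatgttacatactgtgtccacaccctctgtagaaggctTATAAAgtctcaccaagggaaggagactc
Krt71 promoter, chr15:101743098-101743347, minus strand: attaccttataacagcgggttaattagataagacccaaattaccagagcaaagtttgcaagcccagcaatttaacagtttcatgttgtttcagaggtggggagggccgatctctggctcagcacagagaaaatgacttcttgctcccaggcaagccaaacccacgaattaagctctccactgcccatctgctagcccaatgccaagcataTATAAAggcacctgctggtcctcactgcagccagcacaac
The motif began 31 bases before the start in Krtap4-7, 29 in Krtap8-1, 29 in Krt31 and 40 in Krt71. TATAAA, searched on both strands from 250 bases before to 50 bases after the start, was present in 82% of 50 KRTAP windows, in 87.5% of 8 inner root sheath windows and in 66.7% of 9 hair shaft keratin windows. It was present in 8.98% of the 16641 windows of tested genes, in 12.9% of those of genes called higher and in 13.6% of the 32851 windows of the whole table. Other lists varied: it was present in 40% of 45 cornified envelope windows and 42.3% of 26 cytokine windows, but in 0 of 25 cell cycle windows. A match of these letters is a description of the window and was not tested as a site.

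**Figure D2:**
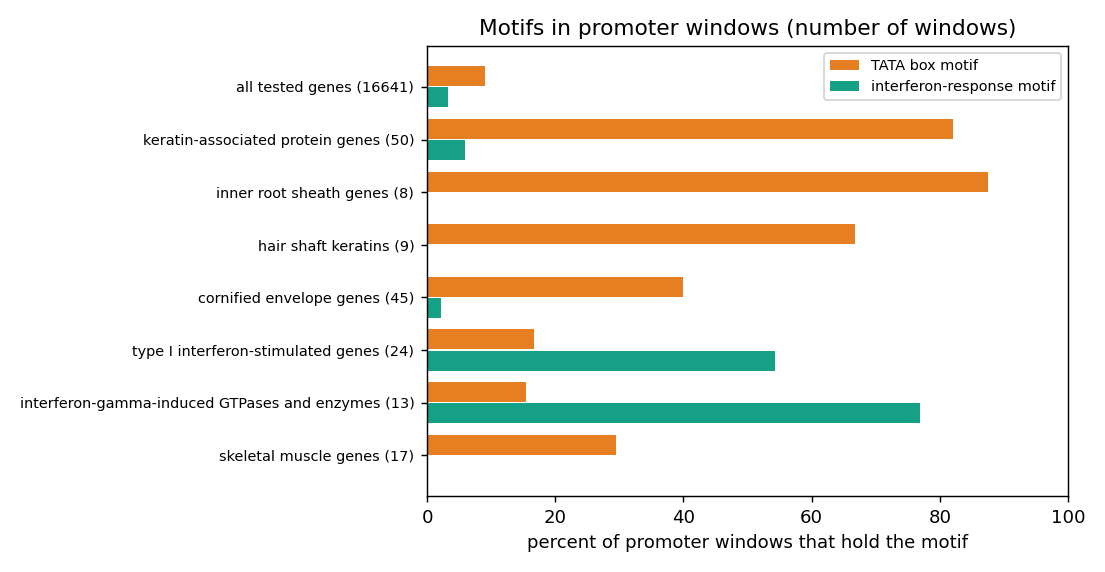
Percent of promoter windows (250 bases before to 50 bases after the start, both strands) that hold TATAAA or GAAA-NN-GAAA in each gene group. TATAAA is most frequent in the KRTAP, inner root sheath and hair shaft groups, and GAAA-NN-GAAA in the interferon-induced groups.

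Most transcription factors and regulators of the follicle rose as well. Of 21 hair follicle regulators tested, 15 were higher and 1 lower, with a median log2 fold change of 2.31, and 12 without NL 2 and 9 without NL 3 stayed higher. Hoxc13, the homeobox factor that activates hair keratin genes, was at 32.2, 56.4, 56.2 and 86.8 CPM in the lesional libraries and 4.07 and 3.92 CPM in the nonlesional ones. Every lesional library exceeded both nonlesional libraries (log2 fold change 3.86, SE 0.38, adjusted p = 0.000784). S100a3, a calcium-binding protein of the hair cuticle (chr3:90560578-90602702), was at 637, 944, 882 and 1205 CPM in the lesional and 1.26 and 1.37 CPM in the nonlesional libraries, with WT levels of 0.616, 0.570 and 0.495 CPM (log2 fold change 9.44, SE 0.37, adjusted p = 2.56e-05). Padi3, the peptidylarginine deiminase that modifies trichohyalin and S100a3, also rose (log2 fold change 9.55, adjusted p = 0.000746). Gata3, a factor of inner root sheath fate that is also expressed in lymphocytes and interfollicular epidermis, was the member that fell (log2 fold change -0.58, adjusted p = 0.0363), a call lost without NL 2 (0.223), without NL 3 (0.12), without L 4 (0.0619) and without L 7 (0.0582, all adjusted p).

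Pigment cell genes were higher in lesional skin, where 13.2% of all tested genes were called higher. All 8 melanocyte genes tested were higher, with a median log2 fold change of 5.91, though only 1 without NL 2 and 1 without NL 3 kept the call. Tyr, the enzyme that starts melanin synthesis, was at 10.9, 12.3, 10.9 and 59.1 CPM in the lesional and 0.0765 and 0.172 CPM in the nonlesional libraries (log2 fold change 7.57, SE 1.42, adjusted p = 0.00819). L 7 stood well above the other 3 lesional libraries, which were themselves above both nonlesional libraries. Mlana, a melanosome protein, had the same order and was the member still called without either nonlesional library (log2 fold change 6.49, adjusted p = 0.00321; without NL 2, 0.0414, and without NL 3, 0.0406). The call for Tyr was lost in both cases (adjusted p = 0.0819 without NL 2 and 0.0737 without NL 3). With at least 10 counts required in every library, 4 of the 8 melanocyte genes could be tested, all of them called higher (median 4.61). Members near 0 in nonlesional skin, such as Tyr, had to be high in other libraries to be tested, so the count of 8 is a description. These are RNA levels, and pigment was not measured. Among 10 sebaceous gland genes, 6 rose (median 1.52). Elovl3, a fatty acid elongase of sebocytes and of the inner hair follicle, led them at 156, 395, 222 and 265 CPM against 8.26 and 5.81 CPM (log2 fold change 5.20, SE 0.53, adjusted p = 0.000936), and was the member still called without NL 2 or NL 3 (adjusted p = 0.015 and 0.0212).

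Most cell cycle genes rose, and the members that did not pass belonged to DNA replication. Of 29 cell cycle genes tested, 24 were higher and none lower, with a median log2 fold change of 2.22, and 11 without NL 2 and 8 without NL 3 remained. Ccna2, the cyclin of S and G2 phase, was at 39.9, 35.0, 50.9 and 67.2 CPM in the lesional and 8.14 and 7.90 CPM in the nonlesional libraries (log2 fold change 2.59, SE 0.33, adjusted p = 0.00173). Bub1, a spindle checkpoint kinase, was at 9.54, 7.30, 13.2 and 18.3 CPM against 1.36 and 1.62 CPM (log2 fold change 3.02, SE 0.44, adjusted p = 0.00281). The 4 lesional libraries lay above both nonlesional libraries for both genes, L 7 highest. The 5 members that did not pass were Mcm2, Mcm3, Mcm4, Mcm6 and E2f1, all of which act in replication licensing or S phase entry, with log2 fold changes of 0.56, 0.63, 0.36, 0.58 and 0.25. These lists do not say which cells were cycling, since the hair matrix, the epidermis and infiltrating cells all divide.

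**Figure D3:**
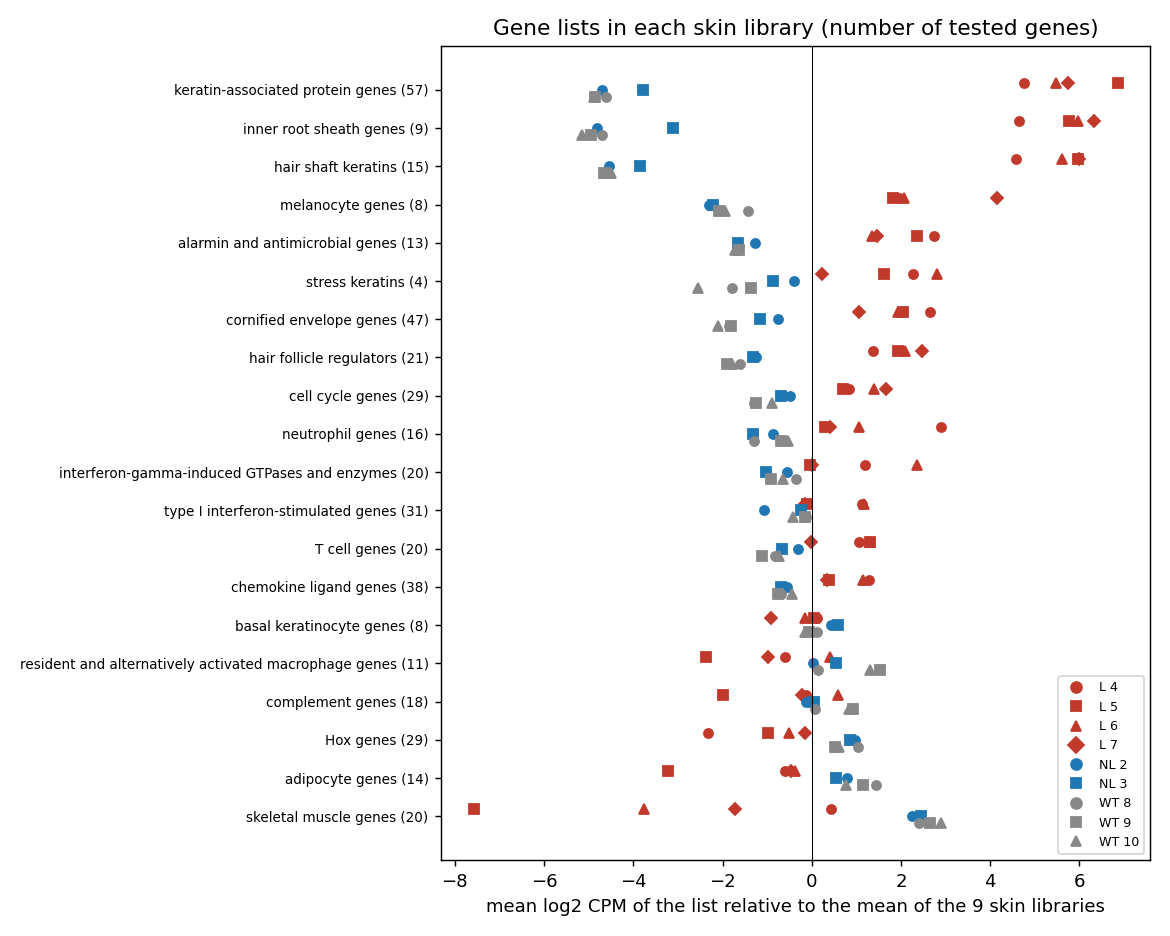
Mean log2 CPM of each of 20 gene lists in each library, relative to the mean of the 9 skin libraries (L red, NL blue, WT grey, one marker shape per library). The KRTAP list separates lesional from nonlesional libraries by more than 8 log2 units, while the skeletal muscle list ranges from -7.58 in L 5 to 0.44 in L 4 among the lesions and lies at 2.24 to 2.89 in the other libraries.

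Most cornified envelope genes rose, while 4 basal keratinocyte genes fell. The cornified envelope is the protein shell that replaces the plasma membrane as keratinocytes die, and most of its genes lie in the epidermal differentiation complex of chromosome 3 (92080271 to 93399442), where 36 of 55 tested genes rose and 1 fell. With at least 10 counts required in every library, 30 cornified envelope genes could be tested, 17 of them higher and 1 lower. In the main comparison, of 47 cornified envelope genes tested, 34 were higher and 1 lower (median 2.45). Of these, 16 without NL 2 and 11 without NL 3 remained higher. Flg, which encodes filaggrin, was at 1249, 720.3, 586 and 356 CPM in the lesional libraries, 63.6 and 65.1 CPM in the nonlesional ones and 35.9, 43.5 and 34.7 CPM in WT (log2 fold change 3.50, SE 0.49, adjusted p = 0.00256). Every lesional library was above both nonlesional ones. Tgm3, a transglutaminase that crosslinks envelope and hair follicle proteins, was at 99.8, 118, 128 and 110.5 CPM against 7.70 and 7.65 CPM (log2 fold change 3.89, SE 0.34, adjusted p = 0.000554). Tgm1, the epidermal transglutaminase, was at 115, 125, 141 and 124 CPM against 55.2 and 59.5 CPM (log2 fold change 1.14, SE 0.12, adjusted p = 0.000784). Both transglutaminases varied little among the lesions and were called in every fit that left out 1 library.

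The small proline-rich (Sprr) and late cornified envelope (Lce) families differed in their counts. All 14 Sprr genes tested and all 6 Lce3 genes rose, while of 14 Lce1 genes 6 rose, 1 fell and 7 did not pass. Members near 0 in nonlesional skin, such as Lce3f, passed the low-count filter through the lesional libraries, so these counts are a description. Of all tested genes 13.2% were called higher and 11.8% lower. Sprr2a2 was at 759, 529, 1490 and 198 CPM in the lesional libraries and 1.34 and 0.564 CPM in the nonlesional ones (log2 fold change 9.59, SE 1.13, adjusted p = 0.00165), and Lce3f, of the Lce3 group that is induced by epidermal injury, at 13.4, 5.30, 6.04 and 3.71 CPM against 0.0956 and 0.0491 CPM (log2 fold change 6.53, SE 0.86, adjusted p = 0.0019). Lce1m moved the other way, at 117, 114, 72.4 and 35.7 CPM in the lesional and 332 and 302 CPM in the nonlesional libraries (log2 fold change -1.90, SE 0.39, adjusted p = 0.0107). The groups did not overlap for any of these 3 genes, but the call for Lce1m was lost without NL 2 (adjusted p = 0.0701) and without NL 3 (0.0635). Lor, the main envelope protein loricrin, did not pass (log2 fold change -0.63, adjusted p = 0.198). Members of these families share sequence, and the counting method divides shared reads by estimate.

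Of 8 basal keratinocyte genes, 4 fell and none rose (median -0.58). The mean log2 CPM of this list, relative to the 9 skin libraries, was 0.11, 0.05, -0.14 and -0.92 in L 4, L 5, L 6 and L 7. It was 0.44 and 0.58 in NL 2 and NL 3, and 0.12, -0.07 and -0.16 in WT 8, WT 9 and WT 10. L 4, L 5 and L 6 thus lay near the WT libraries, and nonlesional skin lay above them. Krt15, a keratin of basal cells and the hair follicle bulge, was at 1047, 1235, 691 and 429 CPM in the lesional and 2521 and 2870 CPM in the nonlesional libraries (log2 fold change -1.66, SE 0.36, adjusted p = 0.0115). All 4 lesional libraries were lower, L 7 the lowest. Col17a1, the hemidesmosomal collagen that anchors basal cells, was at 377, 444, 337 and 161 CPM against 749 and 769 CPM (log2 fold change -1.20, SE 0.32, adjusted p = 0.0275), and Dst, a hemidesmosomal plakin, fell as well (log2 fold change -1.41, adjusted p = 0.0124). The calls rest on both nonlesional libraries: Krt15 had an adjusted p of 0.0583 without NL 2 and 0.087 without NL 3, Col17a1 had 0.122 and 0.141 and also 0.0535 without L 6, and Dst had 0.045 and 0.117, the first still under the threshold. Krt5 and Krt14, the keratin pair of the whole basal layer, did not pass (log2 fold change -0.50, adjusted p = 0.228 for Krt5, and log2 fold change 0.68, adjusted p = 0.242 for Krt14), though without L 7, the lesion lowest in Krt14, the adjusted p of Krt14 was 0.00791. Of 8 differentiating keratinocyte genes, Calm4, a calmodulin-like protein of the suprabasal layers, rose (log2 fold change 1.32, adjusted p = 0.0381) and the other 7 did not pass. The call for Calm4 was lost without NL 2 (adjusted p = 0.192), NL 3 (0.173) or L 6 (0.06).

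Most keratinocyte stress and alarm genes rose, with a wide spread among lesions. Krt6b and Krt16 are keratins that epidermis makes on injury and in hyperproliferation. Krt6b was at 749, 246, 1109 and 73.1 CPM in the lesional and 38.1 and 19 CPM in the nonlesional libraries (log2 fold change 4.25, SE 1.17, adjusted p = 0.0326). Krt16 was at 686, 269, 1338 and 87.6 CPM against 54.7 and 25.7 CPM (log2 fold change 3.89, SE 1.13, adjusted p = 0.0392). L 6 was the highest and L 7 the lowest lesion for both. With Krt17 (log2 fold change 0.90, adjusted p = 0.0346), 3 of 4 stress keratins were higher (median 2.79), and none was called without NL 2 or without NL 3: the adjusted p was 0.137 and 0.197 for Krt6b, 0.146 and 0.223 for Krt16, and 0.19 and 0.157 for Krt17. Krt17 was also lost without L 6 (0.0573), and Krt16 without L 4 (0.0502) or L 6 (0.0505).

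Of 13 alarmin and antimicrobial genes, 9 rose and none fell (median 3.92), and 3 without NL 2 and 3 without NL 3 remained. Il1f6, which encodes the epithelial cytokine IL-36 alpha, was at 39.4, 27.2, 20.2 and 25.9 CPM in the lesional and 0.879 and 0.172 CPM in the nonlesional libraries (log2 fold change 5.69, SE 0.60, adjusted p = 0.00099). Its range among the lesions was narrow, and it was called in every fit that left out 1 library, as were Il1f8, which encodes IL-36 beta (log2 fold change 3.95, adjusted p = 0.00137), and S100a7a, an antimicrobial S100 protein (log2 fold change 7.46, adjusted p = 0.000612). S100a9, a subunit of calprotectin made by neutrophils and by stressed keratinocytes, was at 329, 72.1, 30.8 and 26.2 CPM against 3.52 and 2.16 CPM (log2 fold change 5.33, SE 1.31, adjusted p = 0.0222). L 4 stood above the other lesions. The call for S100a9 was lost without NL 2 (adjusted p = 0.126) and without NL 3 (0.154), as was that for its partner S100a8 (0.18 and 0.18).

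Interferon-induced genes had fold changes above 0 throughout, but the number that passed depended on the fit. All 31 type I interferon-stimulated genes tested had a fitted log2 fold change above 0, as did 52.2% of all tested genes. Of the 31, 6 rose and none fell, beside 13.2% of all tested genes called higher and 11.8% lower. Their median log2 fold change was 1.28 against 0.03 for all tested genes. None of the 6 was called without NL 2 or without NL 3, or with the lesional and nonlesional libraries fitted alone, and the count was 12 without L 5, 3 without L 6 and 14 without L 7. With DESeq2 18 of the 31 passed, and with Xist as a covariate 15. Isg15, a ubiquitin-like modifier, was at 136, 57.0, 102 and 26.1 CPM in L 4, L 5, L 6 and L 7 and 6.40 and 14.6 CPM in NL 2 and NL 3, with 16.5, 13.8 and 11.9 CPM in WT (log2 fold change 2.93, SE 0.69, adjusted p = 0.0192). L 4 and L 6 were high and L 5 and L 7 lower, and none overlapped with nonlesional skin. Without NL 2 the adjusted p was 0.135 and without NL 3 it was 0.0693. Oas1a, an oligoadenylate synthetase that senses double-stranded RNA, was at 53.6, 29.4, 60.9 and 20 CPM against 6.13 and 13.1 CPM (log2 fold change 2.09, SE 0.52, adjusted p = 0.0214; 0.151 without NL 2 and 0.0574 without NL 3). Mx1, a dynamin-like antiviral GTPase, was at 4.37, 1.88, 5.57 and 1.71 CPM against 0.248 and 1.52 CPM and did not pass (log2 fold change 1.95, adjusted p = 0.094), although it did with DESeq2 (adjusted p = 0.0186) and with the Xist covariate (0.0284). The nonlesional libraries themselves differed, NL 3 being above NL 2 for Isg15, Oas1a and Mx1. Over the whole list the mean log2 CPM, relative to the 9 skin libraries, was 1.12, -0.11, 1.16 and -0.16 in L 4, L 5, L 6 and L 7. It was -1.06 and -0.25 in NL 2 and NL 3, and -0.12, -0.16 and -0.42 in WT 8, WT 9 and WT 10. L 5 and L 7 thus lay only slightly above NL 3 and close to WT 8 and WT 9, while NL 2 lay below every WT library.

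The immunity-related and guanylate-binding GTPases, which attack vacuoles of intracellular microbes and are induced most strongly by interferon gamma, were again high in L 4 and L 6. Of 20 genes of this list, 5 rose (median 2.13), beside 13.2% of all tested genes called higher. The count was 0 without NL 2 and 0 without NL 3, 1 with lesional and nonlesional libraries fitted alone, 3 without L 4, 11 without L 5, 9 without L 7 and 15 with DESeq2. Igtp was at 133, 48.0, 226 and 35.4 CPM in the lesional and 18.6 and 11.1 CPM in the nonlesional libraries (log2 fold change 2.90, SE 0.80, adjusted p = 0.0332; 0.132 without NL 2 and 0.2 without NL 3). Socs1, the feedback inhibitor of interferon signalling, was at 10.1, 11.3, 16.4 and 4.90 CPM against 2.58 and 1.77 CPM (log2 fold change 2.29, SE 0.48, adjusted p = 0.0104; 0.0597 and 0.101). L 6 was the highest lesion for both. Ifng itself, the cytokine, was at 2.13, 0.839, 4.47 and 0.0901 CPM in the lesional and 0.229 and 0 CPM in the nonlesional libraries, with L 7 below NL 2, and did not pass (log2 fold change 3.93, adjusted p = 0.119; 0.0488 without L 7). Of 11 interferon and interferon receptor genes none rose and Jak1, a kinase of both interferon receptors, fell (log2 fold change -0.64, adjusted p = 0.0295), a call lost without NL 2 (0.129), NL 3 (0.164) or L 7 (0.0511).

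Of 13 genes of MHC class I and the immunoproteasome 2 rose, near the 13.2% of all tested genes called higher. They were Psme1 and Psme2, the 2 subunits of the proteasome activator (log2 fold change 0.72, adjusted p = 0.0359 for Psme1, and log2 fold change 0.97, adjusted p = 0.016 for Psme2). Neither remained without NL 2 (adjusted p = 0.175 and 0.084) or NL 3 (0.168 and 0.125), Psme1 was also lost without L 4 (0.0575) or L 6 (0.057), and without L 7 the list had 9 calls. None of 10 MHC class II genes passed (median 0.57), and 7 did without L 7.

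Promoters of 4 interferon-induced genes are shown because each holds the same motif. The lists were set by function, as genes that interferon induces. A high share of this motif in them is therefore not a result of these libraries. Isg15 and Oas1a are from the type I list, Igtp is from the interferon gamma list and Cxcl10 is a chemokine ligand described below. Windows, build and strand are as above, and capitals mark GAAA-NN-GAAA, the repeat bound by interferon-activated factors (N is any base), with overlapping copies merged.
Isg15 promoter, chr4:156200819-156201068, minus strand: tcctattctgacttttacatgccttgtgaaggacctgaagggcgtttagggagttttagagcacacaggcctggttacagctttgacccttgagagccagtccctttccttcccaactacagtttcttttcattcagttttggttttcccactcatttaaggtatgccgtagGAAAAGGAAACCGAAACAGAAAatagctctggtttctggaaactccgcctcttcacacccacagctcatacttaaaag
Oas1a promoter, chr5:120907526-120907775, minus strand: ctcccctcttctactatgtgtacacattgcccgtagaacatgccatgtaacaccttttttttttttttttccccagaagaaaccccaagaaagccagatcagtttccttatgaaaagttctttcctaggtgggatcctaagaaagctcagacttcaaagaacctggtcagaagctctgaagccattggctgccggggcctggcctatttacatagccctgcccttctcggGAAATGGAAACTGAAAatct
Cxcl10 promoter, chr5:92348890-92349139, minus strand: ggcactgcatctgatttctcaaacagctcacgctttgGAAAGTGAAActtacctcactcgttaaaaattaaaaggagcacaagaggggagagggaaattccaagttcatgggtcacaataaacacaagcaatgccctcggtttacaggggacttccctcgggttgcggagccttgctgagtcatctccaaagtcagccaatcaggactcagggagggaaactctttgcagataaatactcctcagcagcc
Igtp promoter, chr11:58199306-58199555, plus strand: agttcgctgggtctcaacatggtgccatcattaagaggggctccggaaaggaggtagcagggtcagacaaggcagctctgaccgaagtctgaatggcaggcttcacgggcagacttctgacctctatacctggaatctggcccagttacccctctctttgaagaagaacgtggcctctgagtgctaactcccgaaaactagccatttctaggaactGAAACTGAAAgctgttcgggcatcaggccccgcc
Copies began 78, 72 and 66 bases before the start in Isg15, 20 and 14 in Oas1a, 213 in Cxcl10 and 34 in Igtp. On both strands of the longer window the motif was present in 54.2% of 24 type I interferon-stimulated gene windows and in 76.9% of 13 windows of the interferon gamma list, but in 8.82% of 34 chemokine ligand windows, against 3.2% of the windows of tested genes and 3.44% of all windows. Genes called higher had it in 3.74% of windows and KRTAP genes in 6%. The motif search says nothing on binding in these samples.

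Chemokines that draw T cells and myeloid cells were among the changed genes. Of 38 chemokine ligand genes 8 rose and none fell (median 1.19), and 2 without NL 2 and 0 without NL 3 remained. Cxcl9, a ligand of CXCR3 induced by interferon gamma, was at 91.8, 41.5, 169.9 and 19.9 CPM in the lesional and 2.04 and 0.711 CPM in the nonlesional libraries (log2 fold change 5.85, SE 1.14, adjusted p = 0.00928; 0.0581 without NL 2 and 0.0883 without NL 3). The lesions did not overlap with nonlesional skin, and L 6 was the highest. Cxcl10, from the same cluster, was at 13.3, 2.89, 20.5 and 1.77 CPM against 0.516 and 0.0736 CPM (log2 fold change 4.97, SE 1.51, adjusted p = 0.0459). This call was lost without NL 2 (0.132), NL 3 (0.229), L 4 (0.0587) or L 6 (0.0693). Ccl5, a chemokine that draws effector T cells, was at 4.61, 2.64, 6.61 and 1.80 CPM against 0.612 and 0.245 CPM (log2 fold change 3.17, SE 0.64, adjusted p = 0.00925; 0.0866 without NL 3). Cxcl14, a chemokine made constantly by epithelium, rose less but with little spread, from 109.8 and 86.2 CPM in the nonlesional to 162, 215, 159 and 186 CPM in the lesional libraries (log2 fold change 0.88, SE 0.17, adjusted p = 0.00811; 0.097 without NL 3). Cxcl16 (log2 fold change 0.49, adjusted p = 0.22), Ccl27a (log2 fold change -0.34, adjusted p = 0.675) and Ccl27b (log2 fold change -0.60, adjusted p = 0.388), chemokines made by keratinocytes, did not pass. Single lesions decided these: without L 5, Ccl27a and Ccl27b were called lower (log2 fold change -0.97, adjusted p = 0.0282 for Ccl27a, and log2 fold change -1.15, adjusted p = 0.0142 for Ccl27b), and without L 7, Cxcl16 was called higher (log2 fold change 0.7, adjusted p = 0.00508).

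Of 22 chemokine receptor genes 6 rose and 3 fell (median 0.82). Without NL 2, 1 rose and 1 fell, and without NL 3, 0 rose and 1 fell. Ccr2, the receptor of inflammatory monocytes, was at 54.5, 29.4, 45.2 and 31.7 CPM in the lesional and 9.69 and 10.9 CPM in the nonlesional libraries (log2 fold change 1.97, SE 0.37, adjusted p = 0.00736; 0.0731 without NL 2 and 0.064 without NL 3). All 4 lesions lay above both nonlesional libraries. Ackr2, a decoy receptor that clears inflammatory CC chemokines, went the other way at 6.77, 5.4, 4.45 and 4.27 CPM against 17.2 and 15.3 CPM (log2 fold change -1.64, SE 0.27, adjusted p = 0.004) and was called in every fit that left out 1 library. Among 29 cytokine genes 4 rose and 3 fell, near the shares of all tested genes (13.2% higher and 11.8% lower). Most of these calls rest on both nonlesional libraries. Il34, a ligand of the CSF1 receptor that maintains Langerhans cells, was at 22.5, 26.5, 23.0 and 13.2 CPM against 76.5 and 72.5 CPM (log2 fold change -1.80, SE 0.24, adjusted p = 0.00205), and Il12b, the shared subunit of IL-12 and IL-23, rose (log2 fold change 4.84, adjusted p = 0.00649). Both were called in every fit that left out 1 library. Il17f, a neutrophil-recruiting cytokine, had no count in either nonlesional library and exceeded the floor at least 4.74-fold (adjusted p = 0.0394; 0.172 without NL 2 and 0.159 without NL 3). Its counts were few, it passed the low-count filter through the lesional libraries, and it did not reach the filter without L 5 or without L 7. Il1b was at 366, 11.8, 17.4 and 13.3 CPM in the lesional and 3.56 and 3.26 CPM in the nonlesional libraries and did not pass (log2 fold change 4.90, adjusted p = 0.0974), and nor did Tnf (log2 fold change 1.45, adjusted p = 0.261).

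Several T cell genes were higher, while 3 of 5 gamma delta T cell genes fell. In bulk skin, fewer cells of a type and less RNA per cell cannot be told apart. Of 20 T cell genes 7 rose and none fell (median 1.18), and 3 without NL 2 and 2 without NL 3 remained, with 12 called without L 7 and 13 with DESeq2. Cd4 was at 7.03, 8.51, 13.2 and 5.69 CPM in the lesional and 1.74 and 0.858 CPM in the nonlesional libraries (log2 fold change 2.72, SE 0.50, adjusted p = 0.00645; 0.0682 without NL 3). Icos, a costimulatory receptor of activated T cells, was at 4.68, 6.39, 6.79 and 2.20 CPM against 0.478 and 0.0736 CPM (log2 fold change 4.13, SE 0.78, adjusted p = 0.00689). Cd44, an adhesion receptor of activated lymphocytes that keratinocytes also express, was at 195, 205, 191 and 162 CPM against 83.5 and 92.2 CPM (log2 fold change 1.10, SE 0.12, adjusted p = 0.00099). Cd8a was high in L 4, L 5 and L 6 (6.74, 11.9, 12.1 and 0.919 CPM in L 4, L 5, L 6 and L 7 against 1.13 and 0.123 CPM) and did not pass, with L 7 below NL 2 (log2 fold change 3.63, adjusted p = 0.0592; 0.0173 without L 7). Cd3e did not pass either (log2 fold change -0.81, adjusted p = 0.0614), and without L 4 it was called lower (adjusted p = 0.0369).

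Trdv4, a variable segment of the gamma delta T cell receptor that is used by dendritic epidermal T cells, was at 0.328, 0.271, 0.308 and 0.378 CPM in the lesional and 3.13 and 3.29 CPM in the nonlesional libraries (log2 fold change -3.30, SE 0.30, adjusted p = 0.000561). Trdc, the constant segment of the delta chain, was at 7.56, 6.19, 3.55 and 4.90 CPM against 9.96 and 15.3 CPM (log2 fold change -1.19, SE 0.30, adjusted p = 0.0229; 0.0515 without NL 2 and 0.212 without NL 3). The lesional libraries were low and did not overlap with nonlesional skin for either gene. Of the 5 gamma delta T cell genes tested 3 fell and 1, the transcription factor Sox13, rose (log2 fold change 0.71, adjusted p = 0.0226), a call lost without NL 2 (0.125) and NL 3 (0.136). Prf1, which encodes perforin, was also lower in every lesion, at 3.10, 1.41, 3.22 and 1.86 CPM against 8.53 and 16.6 CPM (log2 fold change -2.39, SE 0.38, adjusted p = 0.00367), whereas Gzmb, which encodes granzyme B, was higher, at 7.01, 4.07, 10.8 and 2.77 CPM against 0.268 and 0 CPM (log2 fold change 5.41, SE 1.01, adjusted p = 0.00714). Both were called in every fit that left out 1 library. In all, 5 of 14 cytotoxic effector genes rose and 1 fell (median 2.68), and 3 without NL 2 and 1 without NL 3 stayed higher. Gzma was among those that rose (log2 fold change 5.09, adjusted p = 0.0455) but lost the call in every fit that left out 1 library.

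Of 12 regulatory T cell and checkpoint genes 5 rose and 1 fell (median 1.29), and 3 without NL 2 and 2 without NL 3 remained higher. Foxp3, the factor of regulatory T cells, was at 1.00, 1.26, 1.3 and 1.3 CPM in the lesional and 0.0956 and 0 CPM in the nonlesional libraries (log2 fold change 4.49, SE 0.90, adjusted p = 0.00864; 0.0503 without NL 3). Pdcd1, which encodes the checkpoint receptor PD-1, had no count in either nonlesional library and exceeded the floor at least 19.7-fold (adjusted p = 0.00518). Pdcd1 passed the low-count filter through the lesional libraries, where it had to be high to be tested against nonlesional skin. Foxp3 was likewise near 0 in both nonlesional libraries. With at least 10 counts required in every library, 7 of the 12 could be tested, 1 of them higher and 1 lower (median 0.09). The counts of this list are therefore a description, beside 13.2% of all tested genes called higher and 11.8% lower. Pdcd1lg2, which encodes its ligand PD-L2, rose too (log2 fold change 4.32, adjusted p = 0.0027). The member that fell was Ikzf2, which encodes Helios (log2 fold change -1.29, adjusted p = 0.0174; 0.117 without NL 2 and 0.0792 without NL 3). In the list of naive and central memory T cell genes 2 of 7 rose and Satb1, a chromatin organiser that epidermis also expresses, fell (log2 fold change -1.96, adjusted p = 0.00229).

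Neutrophil genes were led by one lesion. Of 16 tested 6 rose and none fell (median 2.87), and the count was 1 without NL 2 and 0 without NL 3, 8 without L 4 and 3 without L 6. Cxcr2, the chemokine receptor of neutrophils, was at 29.9, 8.46, 8.68 and 7.98 CPM in the lesional and 1.05 and 0.123 CPM in the nonlesional libraries (log2 fold change 4.51, SE 0.99, adjusted p = 0.0139; 0.078 without NL 3). L 4 stood above the other lesions, and its mean log2 CPM over the list, relative to the 9 skin libraries, was 2.90, against 0.30, 1.06 and 0.42 in L 5, L 6 and L 7 and -0.86 and -1.31 in NL 2 and NL 3. Ly6g and Ngp, defining markers of neutrophils, were too low to be tested. S100a8 and S100a9 belong to this list as well as to the alarmins.

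None of 9 B cell genes, 11 resident macrophage genes or 18 complement genes passed in the main comparison. Of all tested genes 13.2% were called higher and 11.8% lower. The shares of calls in the plasma cell, monocyte and dendritic cell lists that follow were near or under these. Of 16 plasma cell and immunoglobulin constant genes 12 had fold changes above 0 (median 1.39), and 1 rose and 1 fell. Prdm1, a factor of plasma cells that keratinocytes also express, rose (log2 fold change 0.91, adjusted p = 0.0144; 0.126 without NL 2 and 0.0673 without NL 3), and Ighm, the heavy chain of IgM, fell from 209 and 124 CPM in the nonlesional to 29.9, 20.6, 51.1 and 51.1 CPM in the lesional libraries (log2 fold change -2.12, SE 0.38, adjusted p = 0.0067; 0.0671 without NL 2). Ccr2 was the only gene called among 13 monocyte and macrophage genes (median 0.24). Of 15 Langerhans and dendritic cell genes 2 rose, Flt3 and Fscn1, the call for Flt3 being lost without NL 2 (0.0643) and NL 3 (0.16). Fscn1, an actin bundler of mature dendritic cells, was at 26.8, 41.0, 35.0 and 45.0 CPM against 9.92 and 8.02 CPM (log2 fold change 2.04, SE 0.24, adjusted p = 0.00126), and the list had 6 calls without L 7. Of 10 mast cell genes 3 rose and 1 fell, with Fcer1a, the high-affinity IgE receptor, higher (log2 fold change 2.09, adjusted p = 0.00517; 0.0591 without NL 3) and Mrgprb2, the receptor of connective tissue mast cells, lower (log2 fold change -1.67, adjusted p = 0.0127; 0.114 without NL 3). Of 23 pattern recognition receptor genes 3 rose, near the 13.2% of all tested genes called higher. The fungal receptor Clec7a had the lowest p (log2 fold change 2.82, adjusted p = 0.00721). These calls rest on both nonlesional libraries.

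Some wound matrix genes rose, while the main collagens of the dermis did not pass. Of 12 wound matrix and myofibroblast genes 4 rose (median 1.10), and 2 without NL 2 and 2 without NL 3 remained. Tnc, which encodes tenascin C of healing wounds and of the hair follicle sheath, was at 79.0, 74.2, 56.8 and 71.7 CPM in the lesional and 6.00 and 2.85 CPM in the nonlesional libraries (log2 fold change 3.99, SE 0.33, adjusted p = 0.000494). Lrrc15, a surface protein of activated fibroblasts that follicle cells also make, was at 163, 399.5, 200.5 and 316 CPM against 3.00 and 1.40 CPM (log2 fold change 6.93, SE 0.71, adjusted p = 0.00099). The 4 lesions were close to each other for Tnc, and both genes were called in every fit that left out 1 library. Of 40 collagen genes 3 rose and 5 fell (median -0.04), beside 13.2% of all tested genes called higher and 11.8% lower. Most of these calls rest on both nonlesional libraries. Col1a1 and Col3a1, the fibrillar collagens of dermis, did not pass (log2 fold change 0.77, adjusted p = 0.336 for Col1a1, and log2 fold change 0.61, adjusted p = 0.35 for Col3a1). Col11a1, a fibrillar collagen of cartilage and growing tissue, rose (log2 fold change 4.70, adjusted p = 0.00164), and Col22a1, a collagen of the muscle-tendon junction, fell (log2 fold change -4.55, adjusted p = 0.00625; 0.0531 without NL 2). Gsn, which encodes the actin-severing protein gelsolin, was at 1637, 885, 1821 and 1814 CPM against 5141 and 3154 CPM (log2 fold change -1.43, SE 0.30, adjusted p = 0.0112; 0.125 without NL 2). It was 1 of the 2 that fell among 10 fibroblast genes.

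Skeletal muscle genes differed widely between lesions. All 20 tested lay lower in every lesion than in both nonlesional libraries, with a median log2 fold change of -3.51, but none passed the test. Their share of all counts was 1.22, 0.00470, 0.0740 and 0.288% in L 4, L 5, L 6 and L 7, 4.4 and 4.91% in NL 2 and NL 3 and 4.63, 5.54 and 6.37% in WT. Acta1, skeletal muscle actin, was at 1936, 6.51, 84.5 and 474 CPM in the lesional and 7863 and 9217 CPM in the nonlesional libraries (log2 fold change -3.77, adjusted p = 0.0986; 0.0245 without L 4). L 5 held almost none of these transcripts, while L 4 came closest to nonlesional skin. Without L 4, 19 of the 20 were called lower, and without L 5, 5 were. Mouse skin lies on a thin sheet of muscle, the panniculus carnosus, whose inclusion depends on site and depth of sampling, and the part of these in the difference was not tested. The largest named falls included genes of muscle: Mstn, which encodes myostatin, was at 12.1, 0.469, 0.925 and 7.87 CPM against 135 and 179.7 CPM (log2 fold change -4.87, SE 1.02, adjusted p = 0.0125; 0.0527 without NL 2 and 0.0692 without NL 3). H19, an imprinted noncoding RNA expressed in muscle, was at 94.6, 2.86, 13.3 and 45.0 CPM against 749 and 906 CPM (log2 fold change -4.41, SE 1.03, adjusted p = 0.0182; 0.0694 and 0.0859). Hamp2, a gene of the hepcidin family, had the largest fall of all the named genes, from 24.6 and 58.5 CPM in NL 2 and NL 3 to 0, 0.419, 0.375 and 0.288 CPM in L 4, L 5, L 6 and L 7 (log2 fold change -7.30, SE 0.72, adjusted p = 0.000961), and was called in every fit that left out 1 library.

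Adipocyte genes had the same direction with less spread. None of 14 passed (median -1.40), 12 of them lay lower in every lesion than in both nonlesional libraries, and 9 were called lower without L 5 and 7 with DESeq2. Their share of counts was 0.718, 0.142, 0.877 and 0.937% in the lesional and 1.96 and 1.53% in the nonlesional libraries. Adipoq, which encodes adiponectin, was at 271, 53.5, 336 and 389 CPM against 938 and 733 CPM (log2 fold change -1.67, adjusted p = 0.074; 0.00793 without L 5).

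Of 16 glycolytic rows tested, Aldoa having 2, 8 were lower and 1 higher (median -0.66). Aldoa, the aldolase of muscle, was at 1867, 753, 898 and 1006 CPM in the lesional and 5400 and 5988 CPM in the nonlesional libraries (log2 fold change -2.33, SE 0.33, adjusted p = 0.00234). Gapdh and Tpi1, glycolytic enzymes of most tissues, were lower too (log2 fold change -1.82, adjusted p = 0.00557 for Gapdh, and log2 fold change -1.06, adjusted p = 0.0102 for Tpi1), with adjusted p of 0.0316 and 0.0671 without NL 2 and 0.0569 and 0.077 without NL 3. Pfkm, the muscle phosphofructokinase, fell as well (log2 fold change -3.20, adjusted p = 0.0297), a call lost without NL 2 (0.109), NL 3 (0.121), L 6 (0.0534) or L 7 (0.0783), while Pfkl and Pfkp, the liver and platelet forms, did not pass (log2 fold change 0.04, adjusted p = 0.864 for Pfkl, and log2 fold change 0.13, adjusted p = 0.643 for Pfkp). Pgam1, the nonmuscle phosphoglycerate mutase, was the member that rose, at 280.2, 269, 303 and 276 CPM against 169 and 154 CPM (log2 fold change 0.81, SE 0.10, adjusted p = 0.00177). The mean log2 CPM of the glycolytic list, relative to the 9 skin libraries, was 0.02, -0.67, -0.45 and -0.71 in L 4, L 5, L 6 and L 7 and 0.32 and 0.33 in NL 2 and NL 3, and that of the skeletal muscle list was 0.44, -7.58, -3.77 and -1.73 and 2.24 and 2.44. Both lists were lower in every lesion than in both nonlesional libraries, but L 7 was the lowest lesion for glycolysis and L 5 for muscle, and the part of muscle in the glycolytic difference was not tested. Without NL 2 the list had 2 falls and 1 rise, and without NL 3 it had 1 of each. Of 87 ribosomal protein genes 37 rose and none fell (median 0.48; 57 rose with DESeq2 and 17 with the Xist covariate), of which 1 without NL 2 and 2 without NL 3 remained. Lmod1, a leiomodin of smooth muscle, fell with little spread, at 3.53, 4.74, 3.68 and 5.48 CPM against 26.7 and 26.3 CPM (log2 fold change -2.61, SE 0.18, adjusted p = 0.000354), 1 of 2 falls among 10 smooth muscle genes, where Tagln rose (log2 fold change 1.3, adjusted p = 0.00636; 0.0576 without NL 2 and 0.0632 without NL 3). In the Schwann cell list 2 of 7 fell, led by Mbp, myelin basic protein (log2 fold change -1.17, SE 0.11, adjusted p = 0.000668).

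Hox genes, which keep a record of position along the body axis in adult fibroblasts, differed between lesional and nonlesional skin, and the fold changes varied with the gene's number in the cluster. Genes of low number are expressed from the head backwards and those of high number only towards the rear. Of 29 tested 10 fell and 1 rose (median -1.37), and 4 without NL 2 and 2 without NL 3 stayed lower. Among numbers 1 to 4, 0 of 10 passed and the median log2 fold change was -0.03. Among numbers 5 to 8, 5 of 11 fell (median -1.50), and among 9 to 11, 5 of 7 fell (median -3.60). Some of these, such as Hoxa6, Hoxa9 and Hoxc10, were near 0 in the lesions and passed the low-count filter through the nonlesional and WT libraries. The counts by number are therefore a description, beside 11.8% of all tested genes called lower. The 1 gene tested of numbers 12 and 13 was Hoxc13, the hair factor described above. Hoxa7 (chr6:52214491-52221854) was at 1.68, 0.197, 5.64 and 2.77 CPM in the lesional libraries, 45.8 and 51.8 CPM in the nonlesional ones and 40.3, 28.9 and 34.9 CPM in WT (log2 fold change -4.24, SE 0.79, adjusted p = 0.00805; 0.0536 without NL 3). Hoxd9 was at 4.12, 3.82, 3.15 and 3.53 CPM against 9.54 and 9.39 CPM (log2 fold change -1.37, SE 0.16, adjusted p = 0.00119). For both genes every lesion was below both nonlesional libraries, and for Hoxa7 L 5 was the lowest. Hoxb2 to Hoxb4 were near 0 in L 4 alone, with Hoxb2 at 0.382, 15.2, 10.2 and 18.1 CPM in L 4, L 5, L 6 and L 7 and 9.69 and 9.42 CPM in NL 2 and NL 3 (log2 fold change 0.20, adjusted p = 0.906). For these 3 genes L 4 was below every other skin library.

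**Figure D4:**
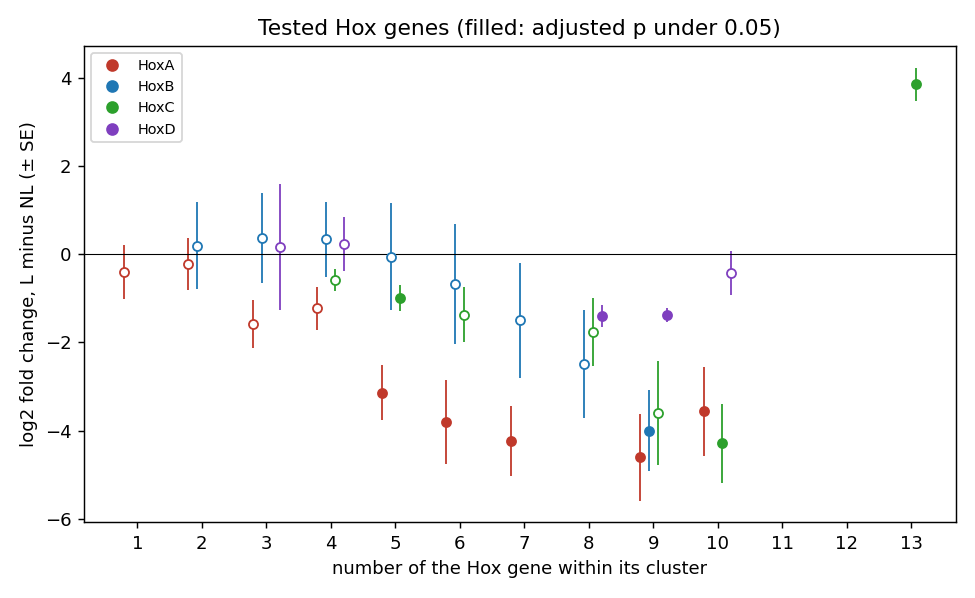
Log2 fold change of lesional over nonlesional skin (vertical axis, bars show SE of the fit) for each tested Hox gene by its number in the cluster (horizontal axis), by cluster. Filled symbols passed the test. Values scatter around 0 for numbers 1 to 4 and lie between -4.61 and -0.43 for numbers 9 to 11, with Hoxc13 at 3.86.

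Of 19 facial and limb position genes 2 rose and 5 fell. The calls of the 5 falls depended on single libraries: 0 remained without NL 2, without NL 3 or with lesional and nonlesional libraries fitted alone, 1 without L 6 and 1 without L 7. Dlx1, a homeobox gene of the jaws that is also expressed in hair follicles, rose (log2 fold change 6.21, SE 0.91, adjusted p = 0.00281) and was called in every fit that left out 1 library, and Dlx2 rose too (log2 fold change 3.86, adjusted p = 0.00658), losing the call without NL 2 (0.0714) and NL 3 (0.0511). The labels state no body site, and the sampled site and the lesion cannot be told apart in these genes or in any other result above.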

How the data were processed

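Skin RNA was sequenced from poly-A libraries by the authors. The deposited values are expected counts per gene, which the authors made with STAR 2.7.8a and RSEM 1.3.3 after trimming with cutadapt 4.8 and quality checks with FastQC 0.11.8 and MultiQC 1.20 (versions from the submitters' processing notes). Gene coordinates given here were looked up by Ensembl gene ID in GENCODE M21, which held 19064 of the 19101 tested genes. RSEM divides reads that match several genes by estimate, which touches the KRTAP, Sprr and Lce families. The lymph node table was not used.

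Expected counts were rounded to whole numbers and tested with edgeR 4.0.16 (limma 3.58.1, R 4.3.3): TMM scaling, filterByExpr by group with a minimum count of 10 and a minimum total of 15, and a robust quasi-likelihood fit of all 9 skin libraries, with the contrast of lesional minus nonlesional skin. Adjusted p-values are Benjamini-Hochberg over 19101 genes with a threshold of 0.05. The fit was tested on simulated data with 200 changed genes. Alternatives were DESeq2 1.42.0, other scalings and filters, leaving out each library, and an Xist covariate. Gene lists were described by counts and medians, with no set test. CPM uses TMM-scaled library sizes. Totals of 40499078 to 56511276 counts per library set the precision, and the bound for genes at 0 rests on 3 counts in each library, covering counting error only. Promoter windows came from RefSeq (GRCm38.p6), and 13140 of the 19079 tested symbols matched.

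The members, lists and tests were chosen with earlier results of these data known. Named genes were taken by rule: from each list the 3 called genes per direction with the lowest p (or the 2 lowest where none was called), the 10 largest rises and falls among called genes with nonoverlapping groups and at least 10 CPM, the 20 genes of widest range among the lesions, and genes that the study's text names. Some genes that this rule names are not reported here. Flg, Sprr2a2, Lce3f, Lor, Krt5, Krt14, Krt31, Krt71, Krtap8-1, the Mcm genes, E2f1, Cd3e, Col1a1, Col3a1, Acta1, Adipoq, Pfkm, Pfkl, Pfkp, Hoxb2, Hoxb3, Hoxb4, Ly6g and Ngp were added outside this rule after their values were seen.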

Additional observations from a re-analysis of the deposited data

Results flagged for a closer look

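Among the 4 lesional libraries, 287 values of named genes and lists were examined with Dixon's test for a single library set apart from the other 3, and 18 were. Chance flags about 1 in 20 values of genes chosen without regard to the lesions, but 20 of these genes were named for their wide range among the same lesions and Krt14, Hoxb2, Hoxb3 and Hoxb4 after their values were seen, so the count is a description only. L 4 had 7 of them, L 5 had 5, L 6 had 0 and L 7 had 6.

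In L 7 the pigment cell genes stood out together. Tyr was at 59.10 CPM (10.89 to 12.26 in the other 3 lesions), Mlana at 37.06 CPM (8.240 to 9.232) and Slc45a2 at 31.62 CPM (4.605 to 6.137), and the mean log2 CPM of the melanocyte list, relative to the 9 skin libraries, was 4.15 (1.81 to 2.06). Cxcl16 was lowest in L 7 at 35.64 CPM (73.13 to 75.50), and so was Krt14 at 1416 CPM (3896 to 4665).

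In L 4 Cxcr2 was at 29.88 CPM (7.982 to 8.681 in the others) and Il1b at 366.4 CPM (11.84 to 17.36). Foxp3 was lowest in L 4 at 1.002 CPM (1.258 to 1.3), and Hamp2 was at 0.000 CPM (0.2883 to 0.4193). Hoxb2 was at 0.3824 CPM in L 4 (10.16 to 18.14), Hoxb3 at 0.2549 CPM (8.328 to 12.41) and Hoxb4 at 0.3824 CPM (4.847 to 7.967), 3 neighbouring genes that were added after their values were seen.

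In L 5 the adipocyte list was lowest, at a mean log2 CPM of -3.23 (-0.59 to -0.38 in the others), as were the eosinophil and basophil list at -2.08 (0.30 to 0.58) and the simple epithelium and gland list at 0.69 (0.80 to 0.82). Gsn was lowest there at 885.1 CPM (1637 to 1821), and Gm47959 highest at 203.8 CPM (43.56 to 53.84).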

How the results depend on the processing

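The count of DEGs was within 1.5 times of 4782 with DESeq2 (5918), with other scalings (4579 to 4799), with other filters (4050 and 4208) and with Xist as a covariate (3945). DESeq2 called more rises among the chemokine ligands (15 against 8), cytokines (7 against 4), collagens (7 against 3) and Langerhans and dendritic cell genes (6 against 2). The count of DEGs moved to 3156 (1339 lower) with lesional and nonlesional libraries fitted alone, to 1872 (1070 higher, 802 lower) at an adjusted p under 0.01, and to 749 (602 higher, 147 lower) against a log2 fold change of 1. With total counts alone 58% of the calls were higher, and with 10 counts in every library 48.1%, against 52.7% in the main comparison. Leaving out 1 library gave 1182 to 5187 DEGs, 657 to 2660 higher and 525 to 2527 lower, the low values without NL 3 and the high values without L 4. Of the 1470 genes called without NL 2 and 1182 without NL 3, 1458 and 1176 were in the main set, and no called gene changed sign in any alternative. Of the 233 named genes 76 kept their side of the threshold in every alternative. Xist, at 0.31 on the log2 scale in the main comparison, was -0.02 with itself as covariate and ranged from -0.67 (without NL 3) to 8.43 (without NL 2) when 1 library was left out. Leaving out 1 library also turned the sign of 4 values that were not called: E2f1 ranged from -0.12 to 0.79, Pfkl from -0.03 to 0.13, Pfkp from -0.02 to 0.22 and Hoxb2 from -0.16 to 0.60. The cause of these changes was not tested, except that leaving out a nonlesional library leaves 1 library on that side. No paired analysis was possible because the lesional and nonlesional libraries share no replicate numbers and the labels do not tie them to mice. The precision is limited by 2 nonlesional libraries and, for genes such as Ifnk and Il17f, by few counts.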

Other observations

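Some tested lists have not been described above. Of all tested genes 13.2% were called higher and 11.8% lower. The shares of calls in the metalloproteinase and respiratory chain lists were near or under these. Of 9 blood endothelial genes 2 fell (median -0.57), Tek, the angiopoietin receptor (log2 fold change -1.05, adjusted p = 0.0374), and Emcn, endomucin (log2 fold change -0.57, adjusted p = 0.0438), and neither was called without NL 2 or NL 3. None of 7 lymphatic endothelial genes passed. Of 18 matrix metalloproteinase genes 1 rose, Mmp20, and 2 fell, Mmp15 and Mmp28, none of which was called without NL 2 or NL 3. Of 93 respiratory chain genes 4 rose and 10 fell (median -0.04), with 2 rises and 1 fall without NL 2, none of either without NL 3, and 25 falls without L 4.

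Single genes called in lists of other cell types were Acan, the proteoglycan of cartilage that is also present around hair follicles (log2 fold change 6.64, adjusted p = 0.00364), Slc4a1, the band 3 protein of red blood cells (log2 fold change 5.25, adjusted p = 0.00721), Lpo, a lactoperoxidase of glands (log2 fold change 3.35, adjusted p = 0.0198), and Siglecf of eosinophils, which was lower (log2 fold change -1.73, adjusted p = 0.0272). Acan kept its call when any 1 library was left out, and the other 3 lost it without NL 2 or NL 3.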
